A study of Caenorhabditis elegans with 37 samples.

Results

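DD and VD motor neurons are the 2 subclasses of the GABAergic D class of the Caenorhabditis elegans ventral cord, and their transcripts were compared in 7 of the 37 deposited RNA-seq libraries. The 3 DD libraries (numbered 83, 84 and 86 in the sample titles) were set against the 4 VD libraries (77, 78, 79 and 81), and genes that differed were separated by whether the call was kept both without VD 78 and without DD 83. Of 15181 genes tested, 28 were called (0.184%), 13 higher in DD (0.0856%) and 15 lower in DD, that is higher in VD (0.0988%). Of these 28, 4 kept their call and direction without either library (0.0263% of tested genes), and the other 24 lost the call in at least 1 of those refits. A gene was called at an adjusted p under 0.05 in edgeR's quasi-likelihood test.

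The series holds bulk RNA-seq of neurons isolated by fluorescence-activated cell sorting, with a pan-neuronal and an all-cell group for reference. DD and VD samples were both untreated worms raised on 8P agar with NA22 bacteria, and the sorted cells went into Trizol LS before library construction with the Tecan SoLo Ovation kit. The pan-neuronal group (5 libraries) carried a Rab3 marker, and the all-cell group (4 libraries) was sorted with stains for living cells alone. For DD and VD, the genotype, the fluorescent transgene and its promoter, and the worm age or stage are not stated in the labels. The labels do not say whether libraries of 1 group derive from different worm cultures. The p-values therefore cover only the variation among libraries, which could be technical. In the main edgeR fit, the spread behind each SE and p was estimated over all 37 libraries, not from DD and VD alone. In bulk samples, fewer cells of a type and less RNA per cell cannot be told apart.

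D neurons release GABA onto body-wall muscle and relax it on the side opposite to a contracting bend. DD neurons are born in the embryo, and move their synaptic output from ventral to dorsal muscle during the first larval stage. VD neurons are born after hatching and keep a ventral output. The homeobox factor UNC-30 specifies both subclasses, and the nuclear receptor UNC-55 acts in VD neurons, where it prevents the DD programme of synaptic remodelling.

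The libraries did not group fully by their labels. Total counts were 1309333, 3439492 and 4484781 in DD 83, 84 and 86, against 5415925, 2254581, 5039206 and 4206960 in VD 77, 78, 79 and 81, so DD 83 and VD 78 were the shallowest of their groups. Across the tested genes, Pearson's r of log2(CPM + 1), where CPM is counts per 1000000 after TMM scaling, was 0.894 to 0.954 between DD libraries, 0.903 to 0.982 between VD libraries and 0.873 to 0.970 between the groups. Each DD library was most like a VD library. DD 83 was most like VD 78 (r = 0.939), above its r of 0.894 and 0.925 with the other DD libraries. DD 84 was most like VD 79 (r = 0.960) and DD 86 most like VD 81 (r = 0.970), above the r of 0.954 between DD 84 and DD 86. DD 83 and VD 78 also had the highest share of counts in body-wall muscle genes of their groups, 3.39% in DD 83 and 3.62% in VD 78, against 1.52% to 2.37% in the other 5. The part of the resemblance of DD 83 and VD 78 in any result was not tested, and the calls below are followed without each of them. The median log2 difference of DD minus VD over all tested genes was -0.11.

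The markers of the 2 subclasses lay on the side their names give. flp-13, which encodes a FMRFamide-like peptide precursor and marks DD neurons, had 1705, 675 and 1221 CPM in DD 83, 84 and 86, against 179, 249, 173 and 341 CPM in VD 77, 78, 79 and 81. The lowest DD library lay above the highest VD library. The difference was 2.35 on the log2 scale (SE 0.48, adjusted p = 0.0210, edgeR), and it was 2.38 without VD 78 (adjusted p = 0.0943) and 2.01 without DD 83 (adjusted p = 0.221), so the call was kept in neither. The mean of 235.3 ± 78.4 CPM in VD (SD, n = 4) was still above those of the other 6 sorted types, which ran from 10.7 CPM in AVG to 29.6 CPM in AWA, and below the pan-neuronal mean of 917 ± 177 CPM (SD, n = 5).

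unc-55, the VD determinant, had 37.8, 20.8 and 16.36 CPM in DD 83, 84 and 86, against 66.8, 73.0, 38.7 and 63.1 CPM in VD 77, 78, 79 and 81. The groups did not overlap, with DD 83 and VD 79 nearest to each other. The difference of -1.29 (SE 0.41) was not called by edgeR (adjusted p = 0.430), and DESeq2, run as an alternative, called it (adjusted p = 0.0176). By DESeq2 the call was kept without DD 83 (adjusted p = 8.77e-05) and lost without VD 78 (adjusted p = 0.114).

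Of the 6 genes that define the GABA phenotype, 4 were higher in both DD and VD than in the pan-neuronal group, 1 was lower in both, and 1 was not called. unc-25, which encodes the GABA-synthesising glutamic acid decarboxylase, had 4546, 3586 and 5416 CPM in the DD libraries and 2809, 2595, 1691 and 3074 CPM in the VD libraries. Every DD library lay above every VD library. The log2 difference was 0.83 (SE 0.33, adjusted p = 0.818, edgeR). The vesicular GABA transporter unc-47 averaged 444 ± 63.2 CPM in DD and 257 ± 68.1 CPM in VD (SD, n = 3 and 4), its sorting partner unc-46 averaged 298 ± 69.4 and 166 ± 49.97 CPM, and unc-30 averaged 657 ± 222 and 337 ± 99.4 CPM in DD and VD. These 4 genes were higher than in the pan-neuronal group in both subclasses, by 2.13 to 3.01 on the log2 scale in DD (adjusted p from 3.40e-07 to 8.96e-06) and by 1.30 to 2.04 in VD (adjusted p from 1.29e-05 to 0.000361). The GABA transporter snf-11 was lower than in the pan-neuronal group in both, at -2.20 in DD (adjusted p = 0.000351) and -2.26 in VD (adjusted p = 3.49e-05). The GABA transaminase gta-1 differed from that group by 0.52 in DD (adjusted p = 0.174) and 0.35 in VD (adjusted p = 0.289). The percentages of all tested genes called higher and lower than pan-neuronal were 18.3% and 20.8% in DD, and 27.7% and 28.5% in VD.

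Over the 6 GABA phenotype genes, edgeR called 0 between DD and VD, 4 had an unadjusted p under 0.05 with DD higher (where 3.09% of all tested genes were so with DD higher and 1.42% with VD higher), and DESeq2 called 1, unc-47 (adjusted p = 0.0223). Their median difference was 0.81, beside -0.11 over all tested genes, and 4 of the 6 did not overlap between groups with DD higher, where 7.02% of all tested genes did so. Summed over the list, they took 0.670 ± 0.0949% of counts in DD and 0.391 ± 0.0779% in VD (SD, n = 3 and 4). Each DD library exceeded each VD library in this share. An exact two-sided permutation test gave p = 0.0286, the smallest that 3 against 4 libraries allow, and 0.271 after adjustment over the 19 shares compared. snf-11 and gta-1 were the 2 members that overlapped, with log2 differences of 0.06 (SE 0.45) and 0.17 (SE 0.32). In the same libraries the share of pan-neuronal genes was also higher in DD, at 1.58 ± 0.201% against 1.10 ± 0.175% in VD, and that of hypodermis and cuticle genes was lower, at 0.401 ± 0.134% against 0.693 ± 0.0833% in VD. The part of these shares in the GABA difference was not tested.

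**Figure D1:**
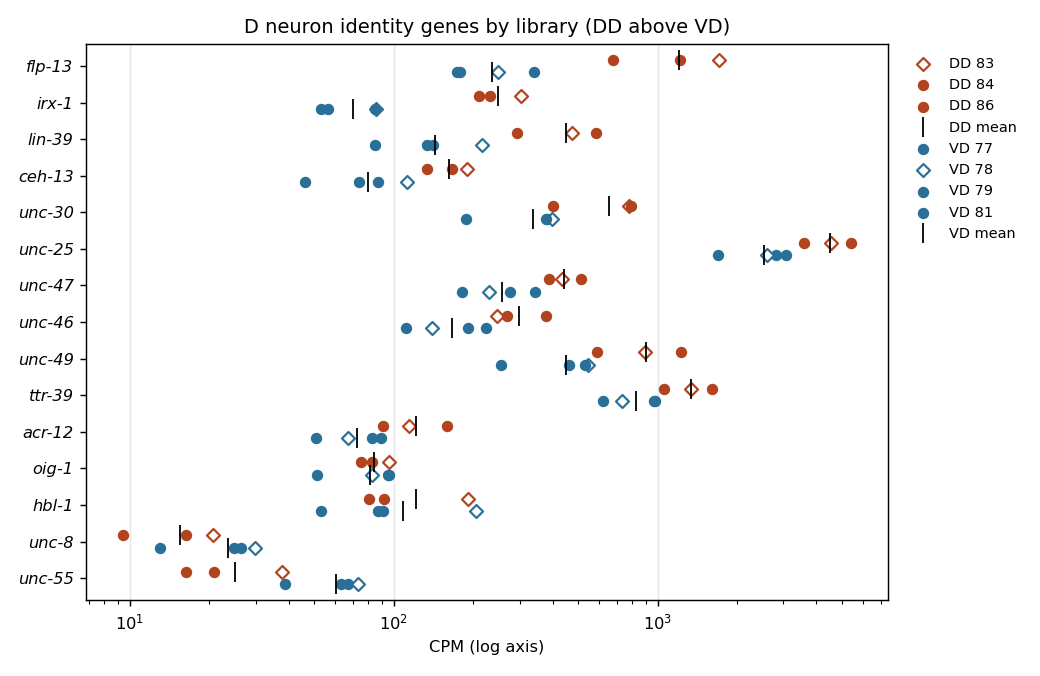
Levels of D neuron identity genes in each library, as CPM on a log axis, with DD libraries (orange) drawn above VD libraries (blue) for each gene, open diamonds for DD 83 and VD 78, and black bars for group means. flp-13, irx-1 and lin-39 separate with DD on the right, unc-55 separates with VD on the right, and oig-1 and hbl-1 overlap.

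Factors and effectors of D neuron identity and remodelling were taken next. irx-1, an Iroquois homeobox gene that acts in DD remodelling and is repressed by UNC-55 in VD neurons, had 305, 231 and 210 CPM in DD 83, 84 and 86, against 53.1, 85.9, 56.1 and 84.7 CPM in VD 77, 78, 79 and 81. Its lowest DD library was well above its highest VD library. The difference of 1.83 (SE 0.44) missed the threshold in edgeR (adjusted p = 0.0866) and passed it in DESeq2 (adjusted p = 0.0118), where it was kept without VD 78 (adjusted p = 0.0230) and lost without DD 83 (adjusted p = 0.159). The irx-1 level in DD was higher than in the pan-neuronal group by 2.10 (SE 0.41, adjusted p = 0.000181), while VD was at 0.27 above that group (adjusted p = 0.572). AVG neurons (244 CPM) and ASG neurons (183 CPM) had irx-1 means of the same order as the DD mean of 248 CPM.

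Of the 25 genes in the identity and remodelling list, edgeR called 0, 2 had an unadjusted p under 0.05 with DD higher and 1 with VD higher, and DESeq2 called irx-1 and unc-55. The median difference of the list was 0.35, which became 0.10 without DD 83 and 0.45 without VD 78. Of the 25, 22 had a difference above 0. With DD higher, 5 (20%) did not overlap, and with VD higher 1 (4%), where 7.02% and 8.77% of all tested genes did so. oig-1, hbl-1 and lin-14, known from the remodelling pathway, had differences smaller than their SE (0.49, 0.51 and 0.46). That does not show equal levels. oig-1, an immunoglobulin-domain gene that opposes remodelling in VD neurons, averaged 84.5 ± 10.3 CPM in DD and 81.1 ± 20.9 CPM in VD. hbl-1, a Hunchback-like timing factor of DD remodelling, averaged 121 ± 60.8 CPM in DD and 109 ± 65.8 CPM in VD, and its highest values were those of DD 83 (191 CPM) and VD 78 (204 CPM). lin-14, another timing factor, averaged 440 ± 242 CPM in DD, with 719 CPM in DD 83, and 334 ± 80.9 CPM in VD. The differences of oig-1, hbl-1 and lin-14 were 0.06, 0.16 and 0.40, and each was below 0 without DD 83 (-0.04, -0.33 and -0.15). The degenerin channel gene unc-8, which promotes removal of presynaptic terminals, averaged 15.4 ± 5.70 CPM in DD and 23.4 ± 7.25 CPM in VD. ttr-39, a transthyretin-related gene used to mark D neurons, averaged 1338 ± 276 CPM in DD and 828 ± 178 CPM in VD, and was higher than in the pan-neuronal group in both (adjusted p = 4.67e-05 and 0.000900).

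Among the 6 Hox cluster genes, which give cells their position along the body axis, lin-39 had the largest difference. lin-39 had 475, 292 and 584 CPM in DD 83, 84 and 86, against 141, 216, 84.7 and 134 CPM in VD 77, 78, 79 and 81. The groups did not overlap, although DD 84 and VD 78 were close. The difference of 1.65 (SE 0.43) was not called by edgeR (adjusted p = 0.132) and was called by DESeq2 (adjusted p = 0.00157), also without VD 78 and without DD 83 (adjusted p = 0.000190 and 0.0311). ceh-13, the most anterior member, averaged 163 ± 28.01 CPM in DD and 79.7 ± 27.4 CPM in VD (difference 1.03, SE 0.52, adjusted p = 0.986). mab-5, which acts in the posterior body, averaged 58.0 ± 33.0 CPM in DD and 58.5 ± 31.8 CPM in VD, and egl-5, which acts in the tail, 6.92 ± 2.93 CPM and 11.6 ± 8.80 CPM. edgeR called 0 of the 6, of which 1 had an unadjusted p under 0.05, and DESeq2 called lin-39 alone.

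The 28 called genes were then described by whether their call was kept. Every one is named here, 11 of them outside the rule for naming genes and so chosen after their values were seen. They comprised 26 protein-coding genes, the noncoding RNA T12B3.7 and the pseudogene WBGene00017102. The libraries of DD and VD did not overlap for 27 of the 28, lagr-1 being the exception, where 15.8% of all tested genes did not overlap. In the annotation, 14 of the 28 overlap another gene, so reads from shared bases may belong to either.

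Of the 13 genes higher in DD, C54G4.5 kept its call in every refit. C54G4.5 (chromosome I, 7995734 to 7996735, plus strand, WBcel235), a protein-coding gene, had 43.5, 55.8 and 75.1 CPM in DD 83, 84 and 86, against 7.90, 10.6, 6.74 and 8.82 CPM in VD 77, 78, 79 and 81. Both groups were tight, and no VD library came near a DD library. The difference was 2.78 (SE 0.42, adjusted p = 0.00199), 2.89 without VD 78 (adjusted p = 0.00900), 2.95 without DD 83 (adjusted p = 0.00287) and 3.05 without both (adjusted p = 0.00921), and the call was kept in all 7 fits that left out 1 DD or VD library. Relative to the pan-neuronal group, C54G4.5 differed by -0.65 on the log2 scale in DD (SE 0.39, adjusted p = 0.187) and was lower in VD, at -3.43 (SE 0.40, adjusted p = 5.31e-08). Among sorted types its mean was higher in ASG (210 CPM) than in DD (58.1 CPM). Its last 77 bases are shared with C54G4.4 on the other strand, which had 127, 5.01 and 7.86 CPM in the DD libraries and 6.09 to 9.71 CPM in the VD libraries, so its high value was in DD 83 alone. Strand use in counting is not stated in the labels, so reads from the shared bases cannot be told apart.

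rabr-1 and K04C2.3 kept their call without DD 83 and lost it without VD 78. rabr-1 had 27.8, 30.8 and 56.1 CPM in DD 83, 84 and 86, against 10.4, 7.53, 10.03 and 13.5 CPM in VD 77, 78, 79 and 81 (difference 1.88, SE 0.38, adjusted p = 0.0175). DD 86 was the highest library, and the other 2 DD libraries lay at more similar levels. Without VD 78 the adjusted p was 0.0943 and without DD 83 it was 0.0365. K04C2.3 had 56.3, 84.1 and 194 CPM in DD, against 29.8, 23.9, 29.1 and 36.6 CPM in VD, again with DD 86 highest (difference 1.90, SE 0.39, adjusted p = 0.0186).

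The other 10 genes higher in DD kept the call in neither refit. They included flp-13, described above, and ilys-4, which encodes an invertebrate-type lysozyme. ilys-4 had 561, 458 and 799 CPM in DD 83, 84 and 86, against 218, 163, 112 and 232 CPM in VD 77, 78, 79 and 81 (difference 1.74, SE 0.35, adjusted p = 0.0186). All 3 DD libraries were above all 4 VD libraries, and the other 6 sorted types had means of 6.05 to 28.5 CPM. ilys-4 lies within atic-1 on the other strand, whose difference was 0.97 (SE 0.60, adjusted p = 0.986). odr-2, which encodes a Ly6-related membrane protein needed for olfaction, had 71.3, 93.2 and 135 CPM in DD, against 32.4, 20.4, 21.1 and 37.9 CPM in VD (difference 1.84, SE 0.40, adjusted p = 0.0382). Both subclasses were lower in odr-2 than the pan-neuronal group, with DD at -1.006 on the log2 scale (adjusted p = 0.0414) and VD at -2.84 (adjusted p = 5.58e-07).

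WBGene00017102, annotated as a pseudogene (chromosome III, 2457413 to 2457795, plus strand, WBcel235), was detected almost entirely in the DD and VD libraries. It had 52.1, 41.8 and 53.9 CPM in DD 83, 84 and 86, against 6.42, 7.08, 6.58 and 7.50 CPM in VD 77, 78, 79 and 81. The spread within each group was small, and the other 6 sorted types, the pan-neuronal and the all-cell group had means of 0 to 2.08 CPM. The difference was 2.83 (SE 0.59, adjusted p = 0.0241), 2.84 without VD 78 (adjusted p = 0.0943) and 2.79 without DD 83 (adjusted p = 0.108). It was higher than in the pan-neuronal group in both DD and VD (adjusted p = 2.29e-09 and 5.45e-07). The pan-neuronal mean of WBGene00017102 was 0.126 ± 0.177 CPM, although flp-13 averaged 917 CPM and unc-25 1024 CPM in that group. Why the level of WBGene00017102 was so low there was not tested. Whether its reads belong to a related gene could not be settled from counts, since the labels do not state how reads mapping to several places were treated.

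C41G7.7 had 98.4, 59.8 and 54.8 CPM in DD 83, 84 and 86, against 8.72, 20.4, 9.38 and 15.9 CPM in VD 77, 78, 79 and 81 (difference 2.39, SE 0.49, adjusted p = 0.0191). The highest library of each group was DD 83 and VD 78, and the groups did not overlap. C41G7.7 lies on chromosome I from 9533421 to 9536740 (minus strand, WBcel235) and shares 276 bases with irx-1 on the same strand, so reads from the shared bases may belong to either. ZK849.1 likewise shares 80 bases with gopc-1 on the same strand. It had 62.05, 67.9 and 127 CPM in DD, against 11.5, 13.7, 17.6 and 23.8 CPM in VD (difference 2.36, SE 0.53, adjusted p = 0.0493), and gopc-1 lay just outside the threshold with a difference of 1.995 (SE 0.471, adjusted p = 0.0757). T12B3.7, a noncoding RNA of 24.2 ± 8.17 CPM in DD and 6.75 ± 1.15 CPM in VD (difference 1.85, SE 0.41, adjusted p = 0.0463), shares 16 bases with pitr-1 on its strand and 268 with C48A7.9 on the other. tmem-120, a homologue of the TMEM120 membrane proteins, averaged 31.2 ± 10.7 CPM in DD and 9.39 ± 2.01 CPM in VD (difference 1.73, SE 0.35, adjusted p = 0.0190). The VD level of tmem-120 was the lowest of the 8 sorted types.

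F59B10.3 and lagr-1 rested on DD 83. lagr-1, a ceramide synthase gene, had 172, 4.26 and 4.36 CPM in DD 83, 84 and 86, against 4.11, 3.54, 5.26 and 5.29 CPM in VD 77, 78, 79 and 81 (difference 3.67, SE 0.79, adjusted p = 0.0332). DD 83 alone was high, and DD 84 and DD 86 lay within the range of VD. The difference was -0.09 without DD 83 and -0.19 without both DD 83 and VD 78 (adjusted p = 1 in both). F59B10.3 had 228, 21.0 and 39.1 CPM in DD, against 13.7, 5.31, 12.2 and 10.6 CPM in VD (difference 3.16, SE 0.62, adjusted p = 0.0157), and 1.503 without DD 83 (adjusted p = 0.923). For F59B10.3 the other DD libraries were also above every VD library. Just outside the threshold, abu-11 showed 1032 CPM in DD 83, against 17.3 and 17.5 CPM in the other DD libraries and 17.2 to 22.9 CPM in VD (adjusted p = 0.0626).

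**Figure D2:**
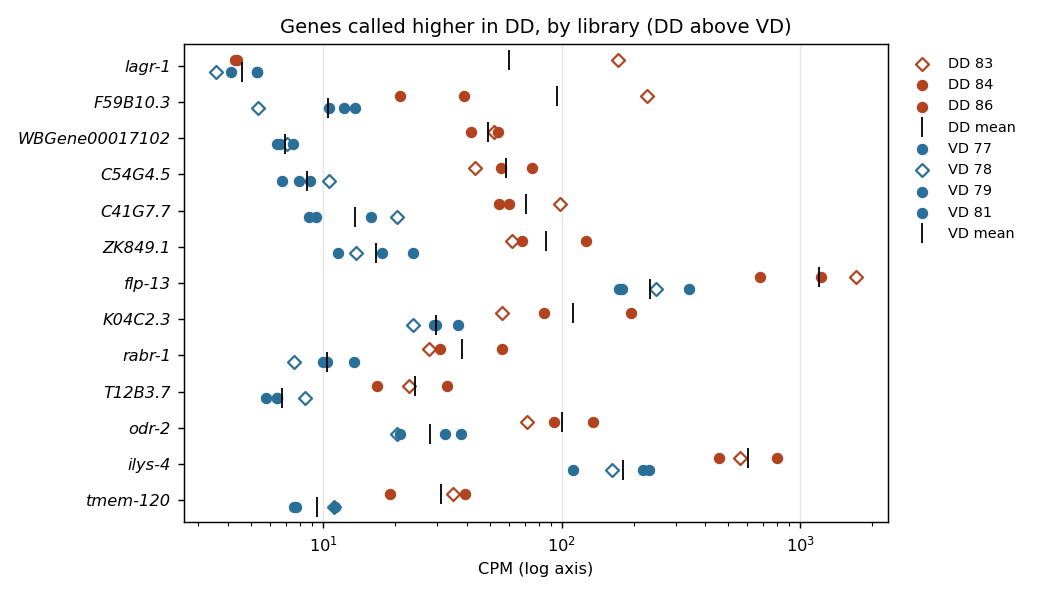
CPM on a log axis for the 13 genes called higher in DD, with DD libraries (orange) above VD libraries (blue), open diamonds for DD 83 and VD 78 and black bars for group means. DD lies to the right of VD in 12 genes, and in lagr-1 the diamond of DD 83 at 172 CPM stands apart from 2 DD libraries that lie among the VD libraries.

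Among the 15 genes lower in DD, 3 kept their call without VD 78 and without DD 83. clec-178, a gene of the C-type lectin family (chromosome IV, 5653949 to 5655003, plus strand, WBcel235), had 4.99, 1.002 and 1.96 CPM in DD 83, 84 and 86, against 60.4, 134, 22.04 and 22.06 CPM in VD 77, 78, 79 and 81. VD 78 was the highest library and VD 77 the next, and even the lowest VD library was above every DD library. The difference was -4.62 (SE 0.71, adjusted p = 0.00212), -3.85 without VD 78 (adjusted p = 0.0134), -5.25 without DD 83 (adjusted p = 0.00501) and -4.49 without both (adjusted p = 0.0173). Relative to the pan-neuronal mean of 14.8 ± 3.30 CPM, DD was lower, at -2.64 on the log2 scale (SE 0.66, adjusted p = 0.00197), and VD was higher, at 1.99 (SE 0.50, adjusted p = 0.00127). The gene lies inside skn-1 on the other strand, whose difference was 0.24 (SE 0.32, adjusted p = 0.986).

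T19C3.5 (chromosome III, 624578 to 627938, minus strand, WBcel235), a protein-coding gene, had 4.99, 4.51 and 3.49 CPM in DD 83, 84 and 86, against 99.7, 227, 42.1 and 38.8 CPM in VD 77, 78, 79 and 81. VD 78 was again highest and VD 77 next, with no overlap between groups. The mean of T19C3.5 was 38.2 ± 24.8 CPM in the all-cell group and 11.3 ± 4.62 CPM in the pan-neuronal group. The difference was -4.56 (SE 0.73, adjusted p = 0.00212), and the adjusted p was 0.0134 without VD 78, 0.0228 without DD 83 and 0.121 without both, so this call was not kept when both were left out. T19C3.5 overlaps T19C3.6 on the same strand, a gene that did not pass the low-count filter, so reads from the shared bases may belong to either.

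W05B10.6 (chromosome V, 12656807 to 12658242, minus strand, WBcel235) had 0 counts in all 3 DD libraries, against 7.73, 6.64, 2.63 and 1.54 CPM in VD 77, 78, 79 and 81. Against a floor of 3 counts over the DD group, the mean was at least 15.4-fold lower in DD than in VD (adjusted p = 0.00435, and 0.0134 without VD 78, 0.0228 without DD 83 and 0.0644 without both). The W05B10.6 call was kept in 6 of the 7 fits that left out 1 library and lost without DD 86 (adjusted p = 0.0616). The pan-neuronal mean of W05B10.6 was 9.38 ± 3.37 CPM and that of PVD neurons 17.5 CPM, both above the VD mean of 4.64 ± 3.01 CPM. It lies inside lin-25 on the other strand (difference -0.55, SE 0.41, adjusted p = 0.986). Of the 4 genes whose calls held, C54G4.5 and clec-178 were the 2 whose calls were also kept without both libraries.

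Genes on the list for the coelomocyte, the scavenger cell of the body cavity, were among those that lost the call. unc-122, whose promoter is used to mark coelomocytes, had 6.42, 1.502 and 2.40 CPM in DD 83, 84 and 86, against 43.1, 161, 20.1 and 27.6 CPM in VD 77, 78, 79 and 81 (difference -4.31, SE 0.83, adjusted p = 0.0122). cup-4, needed for endocytosis by coelomocytes, had 6.42, 2.003 and 4.15 CPM in DD, against 85.4, 262, 45.7 and 58.5 CPM in VD (difference -4.81, SE 0.89, adjusted p = 0.0102). lgc-26, of the ligand-gated ion channel family, had 2.14, 3.26 and 3.49 CPM in DD, against 104, 229, 33.7 and 46.1 CPM in VD (difference -5.04, SE 0.88, adjusted p = 0.00661). In all 3 genes VD 78 was the highest library and VD 77 the next, and every VD library was above every DD library. clec-178 and T19C3.5, whose calls held, had VD 78 and VD 77 in the same order.

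Without VD 78 the differences of unc-122, cup-4 and lgc-26 were smaller in size and their adjusted p were 0.0943, 0.0848 and 0.0524. Without DD 83 the calls of unc-122 and cup-4 were kept (adjusted p = 0.0365 and 0.0473) and that of lgc-26 was not (adjusted p = 0.0555). These 3 were the called members of the 9 coelomocyte genes, where 0.0988% of all tested genes were called lower in DD. The list's median difference was -0.79 in all libraries, -0.17 without VD 78 and -1.55 without DD 83. The list took 0.0141% to 0.0176% of counts in DD and 0.0255% to 0.0897% in VD, with VD 78 highest, and none of the 9 was at 0 in all libraries of either group. The all-cell group had 0.0250 ± 0.00984% and the pan-neuronal group 0.0182 ± 0.00171% (SD, n = 4 and 5). The exact two-sided permutation test of DD against VD gave p = 0.0857 (0.326 adjusted over 19 shares). The part of coelomocyte RNA in the genes lower in DD was not tested.

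In zip-8, lgc-28, lgc-25, Y116A8C.3, Y73F4A.1, cof-2 and clec-145, also lower in DD, VD 78 was likewise the highest library. zip-8, a bZIP transcription factor gene, had 4.28, 1.502 and 0.436 CPM in DD 83, 84 and 86, against 44.1, 239, 17.9 and 13.7 CPM in VD 77, 78, 79 and 81 (difference -5.45, SE 1.03, adjusted p = 0.0122, and 0.125 without VD 78). lgc-28 and lgc-25, of the same channel family as lgc-26, averaged 1.89 ± 0.321 and 2.90 ± 0.583 CPM in DD, against 69.5 ± 73.1 and 60.1 ± 54.2 CPM in VD (differences -5.18 and -4.38, adjusted p = 0.0122 and 0.00764). Y116A8C.3, Y73F4A.1 and cof-2 averaged 3.42, 6.96 and 3.09 CPM in DD, against 93.9, 180 and 58.5 CPM in VD (differences -4.86, -4.73 and -4.32). In each of these 6 genes the lowest VD library was above the highest DD library. zip-8, lgc-25 and cof-2 kept the call without DD 83, and none of the 6 kept it without VD 78. clec-145, a second C-type lectin gene, had 1 count in DD, in DD 83, and 234 in VD, a ratio of counts per total of 123 (95% counting interval 21.9 to 4888), and 49.6 CPM in VD 78 against 3.53 to 10.03 CPM in the other VD libraries (adjusted p = 0.0498).

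VD 78 was the highest VD library in 13 of the 15 genes and VD 77 the second highest in 12. The 15 genes all had a higher mean in VD than in the all-cell group, and VD was the highest of the 8 sorted types in 13. Their all-cell mean was above their pan-neuronal mean in 12 of 15. For the 13 genes higher in DD, the pan-neuronal mean was above the all-cell mean in 10, and DD was the highest of the 8 sorted types in 8. The genes were called on these same DD and VD values. A high rank of VD or DD among the groups was therefore favoured by the choice of genes. The same counts were not made over all tested genes, so there is no rate to set beside them.

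nlp-58, of the neuropeptide-like protein family, had 4.28, 7.01 and 4.58 CPM in DD 83, 84 and 86, against 50.02, 11.5, 20.7 and 26.03 CPM in VD 77, 78, 79 and 81 (difference -2.33, SE 0.52, adjusted p = 0.0465). Here VD 78 was the lowest VD library, and the groups did not overlap. The pan-neuronal mean of nlp-58 was 79.04 ± 27.8 CPM, and both subclasses were lower, DD at -3.87 on the log2 scale (adjusted p = 1.92e-06) and VD at -1.54 (adjusted p = 0.00248). The adjusted p of DD against VD was 0.0524 without VD 78 and 0.289 without DD 83, and the nlp-58 call was kept in none of the 7 fits that left out 1 library. It was also lost with DESeq2 size factors, with library totals alone, with no low-count filter and without mitochondrial genes (adjusted p from 0.0519 to 0.0827), and DESeq2 called it (adjusted p = 0.00270). inos-1, the gene of an inositol-phosphate synthase, had 87.0, 102 and 146 CPM in DD, against 674, 1448, 222 and 356 CPM in VD (difference -2.59, SE 0.56, adjusted p = 0.0327). As in most of these genes, VD 78 was highest and VD 77 next, and the lowest VD library was above the highest DD library. inos-1 lies inside xpf-1 on the other strand, whose difference was -0.09 (SE 0.29, adjusted p = 1).

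**Figure D3:**
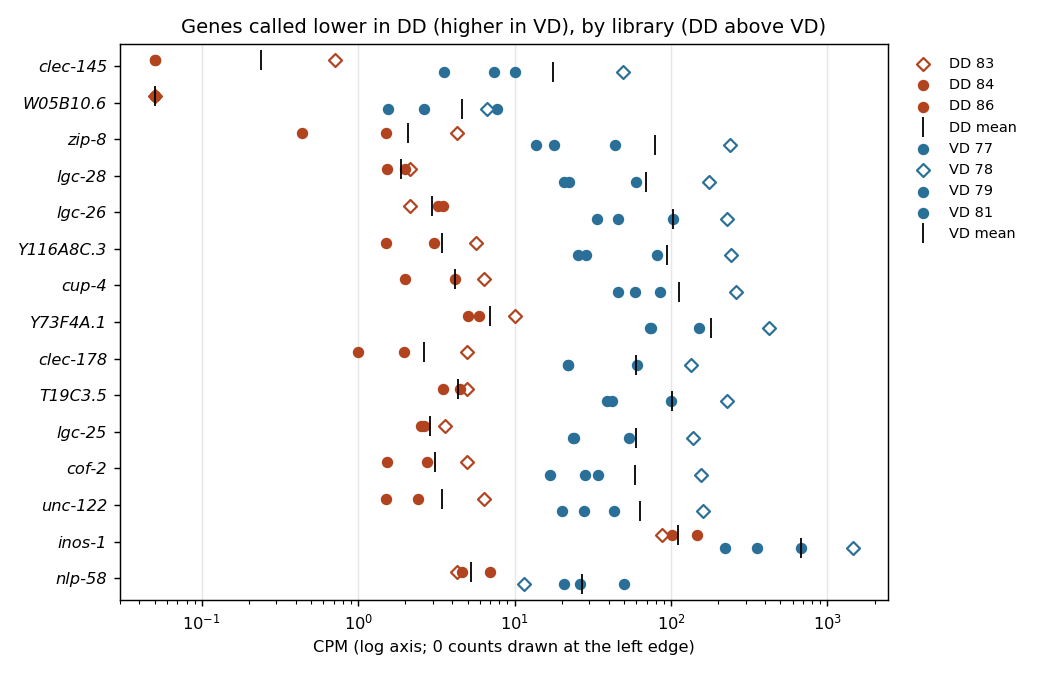
CPM on a log axis for the 15 genes called lower in DD, with DD libraries (orange) above VD libraries (blue), open diamonds for DD 83 and VD 78, black bars for group means and 0 counts drawn at the left edge. VD lies to the right of DD in all 15, and the diamond of VD 78 is the rightmost VD point in 13.

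Leaving out any 1 of the 7 libraries removed calls, and VD 78 and DD 86 removed the most. Of the 28 calls, 11 were kept without DD 83 (3 higher in DD and 8 lower), 11 without DD 84 (8 and 3) and 5 without DD 86 (3 and 2). The number kept was 13 without VD 77 (1 higher in DD and 12 lower), 4 without VD 78 (1 and 3), 14 without VD 79 (1 and 13) and 18 without VD 81 (4 and 14). The sign of the difference was the same in all 28 genes in each of these fits, except for lagr-1 without DD 83. Without both DD 83 and VD 78, 2 calls were kept. With a term added for these 2 libraries as a pair, an alternative chosen after seeing the data, 9 genes were called higher in DD and 13 lower.

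The calls also differed between tools and between the sets of libraries fitted. DESeq2's Wald test on the same genes called 91, of which 60 were higher in DD (0.395%) and 31 lower (0.204%), among them all 28. By DESeq2, 44 calls were kept both without VD 78 and without DD 83 (25 higher in DD and 19 lower), and 25 of the 28 were among these. The 3 that were not were lagr-1, F59B10.3 and clec-145. With the 7 libraries fitted alone in edgeR, 2 of 13181 genes were called, C54G4.5 (adjusted p = 0.0130) and WBGene00017102 (adjusted p = 0.00268), both higher in DD. That fit called 0 genes lower in DD, and 1378 and 820 genes had an unadjusted p under 0.05 with DD higher and lower.

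**Figure D4:**
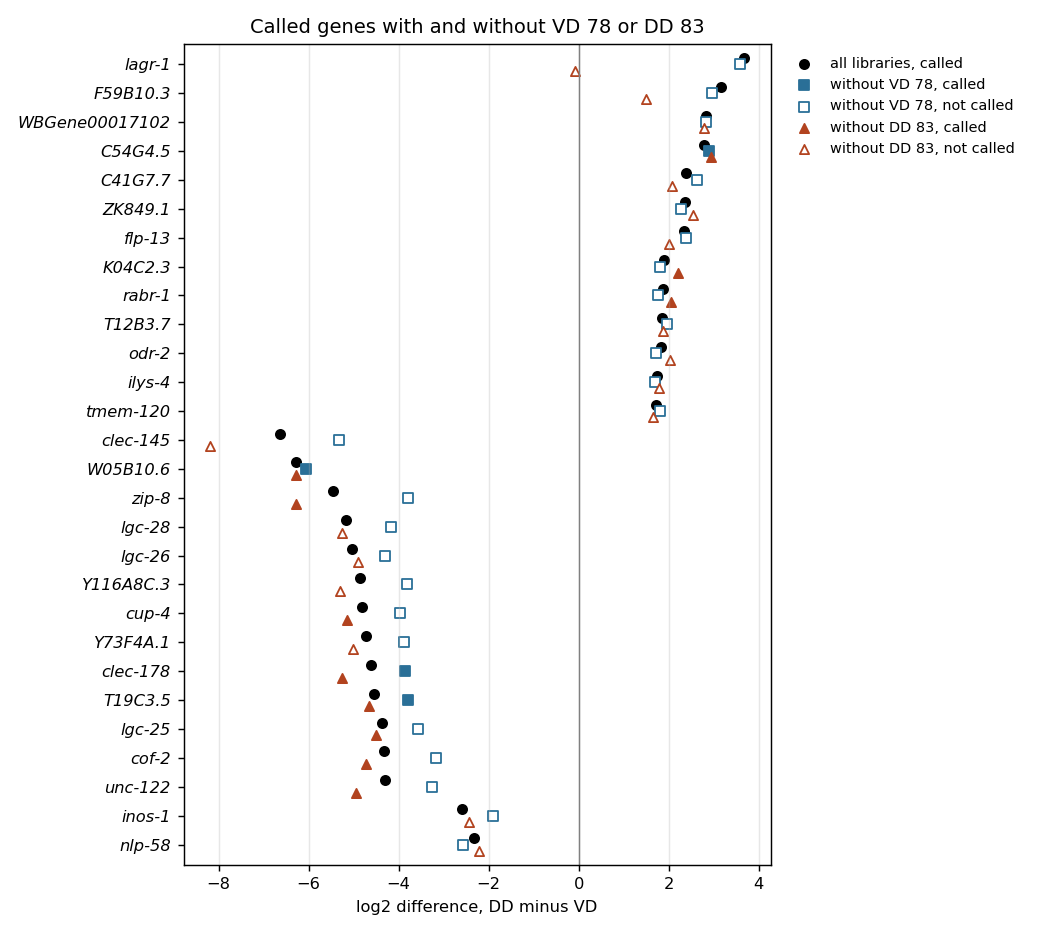
Log2 difference of DD minus VD for the 28 called genes in all libraries (black circles), without VD 78 (blue squares) and without DD 83 (orange triangles), with filled symbols for called and open symbols for not called. Filled symbols in all 3 fits mark C54G4.5, W05B10.6, clec-178 and T19C3.5, and the triangle of lagr-1 falls at -0.09.

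Gene families with roles in neurons and marker lists of other tissues were also counted, beside the 0.184% of all tested genes that were called. Of 48 such lists, 44 had no member called by edgeR, of which 28 had a member with an unadjusted p under 0.05, and 36 of the 48 had no member called by DESeq2. flp-13 was the 1 called of 30 FMRFamide-like peptide genes (median difference -0.07), and nlp-58, whose call was lost under the other settings given above, the 1 called of 67 neuropeptide-like protein genes (median 0.02). nlp-13, another neuropeptide-like gene, had 383, 335 and 542 CPM in DD 83, 84 and 86, against 152, 161, 123 and 181 CPM in VD 77, 78, 79 and 81 (difference 1.45, SE 0.50, adjusted p = 0.558). Its lowest DD library was above its highest VD library. flp-15, another FMRFamide-like peptide gene, averaged 315 ± 90.2 CPM in DD and 255 ± 110 CPM in VD.

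Synaptic genes had no calls by edgeR. Of 37 synaptic vesicle and active zone genes, 24 had a difference above 0 and 0 were called, 5 had an unadjusted p under 0.05 with DD higher and 2 with VD higher, and DESeq2 called 1. Their median difference was 0.47, and 15 (40.5%) did not overlap with DD higher and 2 (5.41%) with VD higher, where 7.02% and 8.77% of all tested genes did so. The list of 29 pan-neuronal genes was much alike, with 11 (37.9%) not overlapping with DD higher, 0 with VD higher and a median of 0.47. unc-10 is on both lists. The part of the pan-neuronal share in the synaptic and signalling differences was not tested. The shares of all tested genes with an unadjusted p under 0.05 were 3.09% with DD higher and 1.42% with VD higher. unc-10, the RIM scaffold of the active zone, averaged 2653 ± 979 CPM in DD and 1313 ± 360 CPM in VD (difference 1.015, SE 0.43, adjusted p = 0.917). cla-1, the large Clarinet active zone protein, lay the other way, with 1079, 560 and 512 CPM in DD 83, 84 and 86, against 2089, 2611, 1375 and 2069 CPM in VD 77, 78, 79 and 81 (difference -1.51, SE 0.61, adjusted p = 0.868). Its groups did not overlap. unc-44, the giant neuronal ankyrin gene, also lay lower in DD, with 2225 ± 449 CPM in DD and 4870 ± 781 CPM in VD (difference -1.13, SE 0.46, adjusted p = 0.872).

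Signalling lists leaned in different directions. Of 94 neuropeptide receptor genes tested, edgeR called 0 and DESeq2 called 1, lower in DD, and the median difference was -0.23. With VD higher, 17 (18.1%) did not overlap, and with DD higher 8 (8.51%), beside 8.77% and 7.02% of all tested genes. An unadjusted p under 0.05 was found in 8 with VD higher and 0 with DD higher, beside 1.42% and 3.09% of all tested genes. Of 37 G protein and cAMP signalling genes, 0 were called by edgeR or DESeq2, and the median difference was 0.36. An unadjusted p under 0.05 with DD higher was found in 2, near the 3.09% of all tested genes. With DD higher, 13 (35.1%) did not overlap, beside 7.02% of all tested genes and 37.9% of the pan-neuronal list. egl-30, the Gq alpha subunit, averaged 2271 ± 281 CPM in DD and 1135 ± 244 CPM in VD (difference 1.001, SE 0.48, adjusted p = 0.986), and gpb-1, the G beta subunit, 2859 ± 270 CPM and 1494 ± 348 CPM. The GABA-A receptor gene unc-49 had 894, 591 and 1223 CPM in the DD libraries, against 461, 543, 255 and 532 CPM in the VD libraries (difference 1.013, SE 0.33, adjusted p = 0.433), with no overlap. The other 8 GABA receptor genes lay below 0, and the median of the 9 was -0.57. With VD higher, 3 of the 9 (33.3%) did not overlap, beside 8.77% of all tested genes. An unadjusted p under 0.05 was found in 2 with VD higher and 1 with DD higher, and 0 were called by edgeR or DESeq2. ttx-3, a LIM homeobox gene, averaged 1067 ± 249 CPM in DD and 501 ± 105 CPM in VD, and was higher than the pan-neuronal mean of 18.5 CPM in both (adjusted p = 5.00e-09 and 2.64e-08). By comparison, unc-30 averaged 657 and 337 CPM in DD and VD, and 81.3 CPM in the pan-neuronal group. The source of the ttx-3 reads in DD and VD was not tested.

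Shares of counts in tissue lists were compared last, and the cells from which these reads came were not tested. Pan-neuronal genes took 1.58 ± 0.201% of counts in DD and 1.10 ± 0.175% in VD (SD, n = 3 and 4), below the 2.86 ± 0.301% of pan-neuronal libraries and above the 0.480 ± 0.242% of all-cell libraries. The DD and VD libraries did not overlap in this share (exact two-sided permutation p = 0.0571, 0.326 adjusted). Of the 29 pan-neuronal genes edgeR and DESeq2 called 0, 3 had an unadjusted p under 0.05, and the median difference was 0.47. As given above, 11 of them (37.9%) did not overlap with DD higher. Hypodermis and cuticle genes took 0.266%, 0.533% and 0.402% in DD 83, 84 and 86, against 0.738%, 0.613%, 0.788% and 0.634% in VD 77, 78, 79 and 81 (exact two-sided permutation p = 0.0286, 0.271 adjusted). Every VD library was above every DD library.

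Of the 24 hypodermal genes, 13 did not overlap with VD higher, where 8.77% of all tested genes did so, and the median difference was -0.80. edgeR and DESeq2 called 0 of them, and 1 had an unadjusted p under 0.05. dpy-5, a cuticle-processing protease, averaged 378 ± 105 CPM in DD and 679 ± 68.9 CPM in VD, and the collagen gene col-10 averaged 987 ± 242 CPM in DD and 1459 ± 115 CPM in VD. Cuticle collagens together took 1.88 ± 0.631% in DD and 3.10 ± 0.442% in VD (exact two-sided permutation p = 0.0857, 0.326 adjusted). Body-wall muscle genes took 2.37 ± 0.880% in DD and 2.32 ± 0.933% in VD, above the 1.21 ± 0.124% of pan-neuronal libraries. unc-54, a member of that list, averaged 8766 ± 4101 CPM in DD and 6449 ± 3578 CPM in VD. Its mean was 9082 ± 1434 CPM in pan-neuronal and 6727 ± 8682 CPM in all-cell libraries. The part of hypodermal and muscle RNA in the differences between DD and VD was not tested. Cholinergic motor neuron genes took 0.0262 ± 0.00542% in DD and 0.0337 ± 0.00717% in VD, against 0.209 ± 0.00373% in pan-neuronal libraries, and unc-17, the vesicular acetylcholine transporter, averaged 31.9 and 41.7 CPM in DD and VD beside 629 CPM in pan-neuronal libraries. Of the 19 shares compared, 4 did not overlap between DD and VD, 2 had an unadjusted exact p under 0.05, and 0 passed after adjustment.

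**Figure D5:**
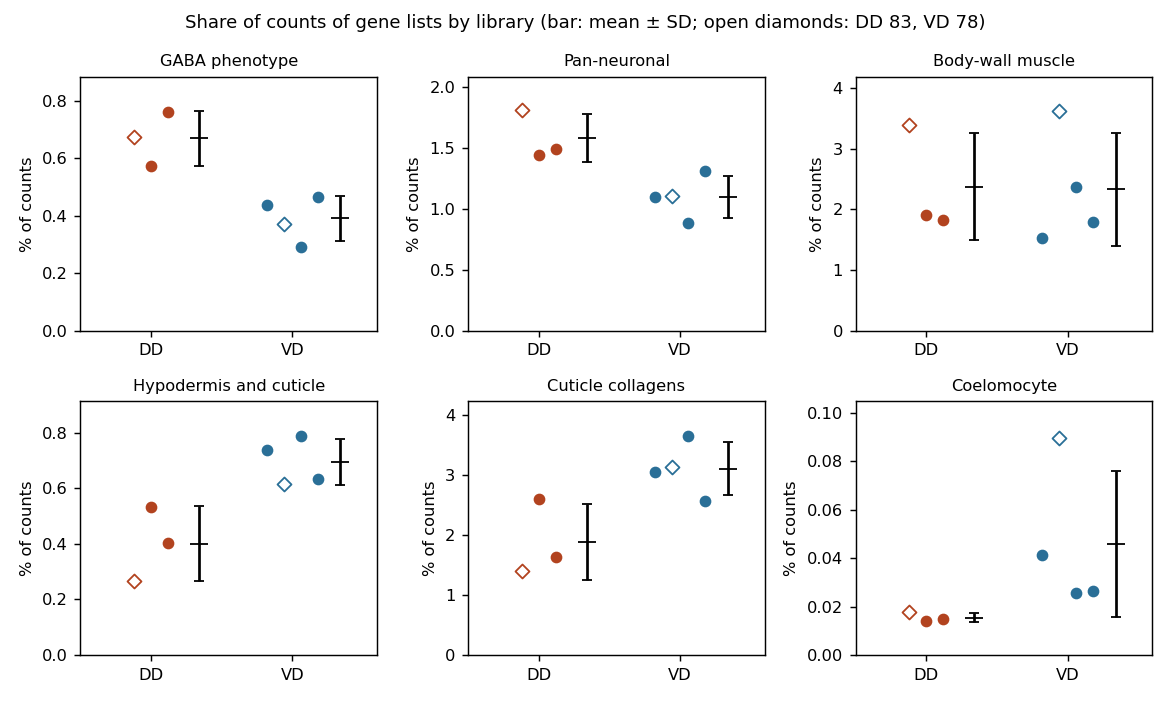
Share of counts, in percent, taken by 6 gene lists in each DD library (orange) and VD library (blue), with open diamonds for DD 83 and VD 78 and black bars for the mean ± SD. GABA, pan-neuronal, hypodermal and coelomocyte shares do not overlap between DD and VD, and DD 83 and VD 78 are the highest of their groups in body-wall muscle.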

How the data were processed

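RNA-seq libraries were sequenced from sorted cells of 10 groups, 37 in all. The table the authors deposited holds raw counts, whole numbers for each gene without normalization, and per the submitters' processing notes used STAR, SAMtools and featureCounts. Their versions, the build, strandedness and handling of duplicate or multiply mapped reads were not given in the sources used. The count table's annotation release is WS274, and gene classes and positions came by gene identifier from the WBcel235 annotation (30584 of 30631 genes), symbols from a name table (27849).

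Groups came from the sample titles. The test was edgeR's quasi-likelihood fit to the 37 libraries together (edgeR 4.0.16, R 4.3.3, TMM, filterByExpr by group, 15181 genes kept), with Benjamini-Hochberg adjustment and the contrast DD minus VD. A call held when it was made with the same sign in all libraries, without VD 78 and without DD 83. CPM is the count over library total times TMM factor. CPM is not divided by gene length. SE is the log2 difference over the square root of the F statistic. Alternatives were DESeq2 1.42.0, other scalings, no low-count filter, DD and VD fitted alone and each library left out. Shares were compared by exact permutation over the 35 splits of 7 libraries. Chi-square per degree of freedom between libraries of a group was 7.24 to 21.4, more than counting error alone gives, and no libraries were merged. It cannot show that the libraries are independent samples, since that spread could be technical. Intervals and floors cover counting error only. The fitting code was tested on simulated data.

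Genes were named by a rule. Called genes were taken when they held, did not overlap and averaged 20 CPM or more where they were higher. Up to 6 called genes from each end that did not hold and reached that level were added. So were all members of the GABA, DD and VD marker, identity and Hox lists, and from every other list up to 6 called members and the 2 most abundant uncalled ones. The members and lists were chosen with earlier results of these data known.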

Additional observations from a re-analysis of the deposited data

Results flagged for a closer look

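Among 97 items examined for a VD library far from the other 3, 8 had one. The examination, Dixon's test, flags about 1 in 20 groups of independent, normally distributed values. These items are related to each other, and some were chosen because they were called, so that rate does not apply to them. The 3 DD libraries are too few for this examination. VD 78 was the far library, and the highest, in 5 of the 8 items. It had 49.6 CPM of clec-145, 239 CPM of zip-8, 155 CPM of cof-2 and 161 CPM of unc-122, all called lower in DD. It also had 39.8 CPM of snf-11, which was not called. VD 79 was the far library, and the lowest, in the other 3 items, with 3704 CPM of unc-44, 138 CPM of unc-9 and 188 CPM of unc-30, none of them called.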

How the results depend on the processing

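No paired analysis was possible because DD and VD share no replicate numbers. DESeq2 called 60 genes higher in DD and 31 lower, with 44 calls that held. With DD and VD fitted alone edgeR called 2 and 0, and 2 calls held. Left-out libraries gave 1 to 10 genes called higher in DD and 1 to 14 lower. Other scalings (DESeq2 size factors, library totals), no low-count filter and leaving out mitochondrial genes gave 9 to 18 higher and 13 to 14 lower, with 4 or 5 calls that held. Of the 28 calls these kept 25, 21, 26 and 26 in that order, and nlp-58 was lost in all 4. The causes were not tested. Fewer libraries also leave fewer residual degrees of freedom.

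Signs turned in lagr-1 (-0.19 to 4.23 over left-out libraries) and in 6 uncalled genes. Over left-out libraries these were egl-5 (-1.15 to 0.027), mab-5 (-0.52 to 0.30), oig-1 (-0.13 to 0.13), snf-11 (-0.14 to 0.34), hbl-1 (-0.33 to 0.65) and lin-14 (-0.15 to 0.63). mab-5 was also at 0.026 by DESeq2, 0.025 with its size factors, 0.032 without the filter, 0.032 without mitochondrial genes and 0.060 with DD and VD alone. Differences in share of counts (DD minus VD, percentage points) turned sign over left-out libraries in 8 lists that overlapped between groups. They were other GABAergic neurons (-0.00359 to 0.000907), other neuron types (-0.00628 to 0.00511), body-wall muscle (-0.459 to 0.480), pharyngeal muscle (-0.0203 to 0.0667), germline (-0.0706 to 0.0144), sperm (-0.0415 to 0.0333), seam and excretory cells (-0.00378 to 0.00131) and mitochondrial genes (-0.250 to 0.0174). With 1309333 to 5415925 counts per library, genes of a few CPM rest on few counts in DD 83, where 1 count is worth about 0.713 CPM.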
